A study of Homo sapiens with 6 samples.

Results

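The regions here are narrow TEAD peaks of CCLP1 cells, single or in pairs, that overlap no listed peak of YAP or the tagged mutant YAP5SA. There were 4975 of them among 9321 TEAD peaks (53.4%), so they were the majority of the TEAD list by number. They covered 942793 of the 2658394 bases in TEAD peaks (35.5%). They were chosen by position, width, spacing and overlap as the deposited lists give them. Each was required to lie on chromosomes 1 to 22, to be under 300 bp wide and to lie more than 2 Mb from any of 21 stretches of over 2.5 Mb in which no list had a peak. Peaks in a run of 3 or more TEAD peaks, each within 12500 bp of the next, were left out, as were peaks overlapping a YAP or YAP5SA peak by 1 bp or more. The words narrow lone peaks are used for these regions, and broad lone peaks for the 899 TEAD peaks that met every condition but were 300 bp or wider.

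CCLP1 is an established human cell line from an intrahepatic bile duct cancer. Chromatin immunoprecipitation followed by sequencing (ChIP-seq) recovers DNA bound by a protein after formaldehyde fixation. The 6 groups of the series held 1 library each, precipitated for YAP, for TEAD or for Flag-Bio-YAP5SA, or serving as the IgG, input and BirA libraries. All were of the same cell line with no treatment named, and BirA stands in the design text as the control of the tagged protein, while the same text gives the TEAD target as TEAD1. How the tagged protein was introduced is not given in the sources used here.

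TEAD proteins are DNA-binding transcription factors that have little activating capacity of their own. YAP, the co-activator restrained by the Hippo kinase cascade, has no DNA-binding domain and reaches chromatin largely through TEAD. YAP5SA carries serine-to-alanine changes that make it resistant to the LATS kinases. TEAD can also be occupied by other partners, among them TAZ and the VGLL proteins, none of which was measured in these libraries. A TEAD peak with no YAP peak is therefore a region where TEAD was listed and YAP was not; the lists record peaks above the authors' threshold and hold no signal below it, so absence of YAP signal cannot be read from them.

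The regions could not be given genes, promoters or sequences. The lists are in hg19, and the reference tables at hand are in another build, so positions are printed as listed, counted from 1.

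The narrow lone peaks were weak by the authors' score. Their scores ran from 50 to 489.93 with a median of 65.4 (interquartile range 55.7 to 82.7), where 50 was the lowest score listed in any of the 3 libraries. For the broad lone peaks it was 203 (132 to 320), and they reached 1946. TEAD peaks in runs that overlapped neither other list lay between, with a median of 100.05 over 2021 peaks, and the 488 TEAD peaks that overlapped YAP5SA had a median of 375. Width and score come from the same peak call and width chose the members, so these values describe the set and carry no test. The score is a value per peak with 1 library behind it, and no replicate error can be given for any value here.

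Most members sat close to the lowest listed score. Of the 4975, 1741 scored under 60 (35.0%) and 1886 scored from 60 to 80 (37.9%). A further 604 lay between 80 and 100 (12.1%) and 678 between 100 and 200 (13.6%), which left 66 at 200 or above (1.33%). Among the broad lone peaks 24 of 899 scored under 60 (2.67%) and 463 reached 200 or more. The members also shared scores: 2376 distinct values occurred among them. The score 55.16 alone was carried by 339 members (6.81%), 65.48 by 106 and 57.64 by 72. No broad lone peak had any of these 3 scores, but few broad lone peaks scored this low. Narrow isolated peaks that met a YAP or YAP5SA peak carried all 3 as well.

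**Figure D1:**
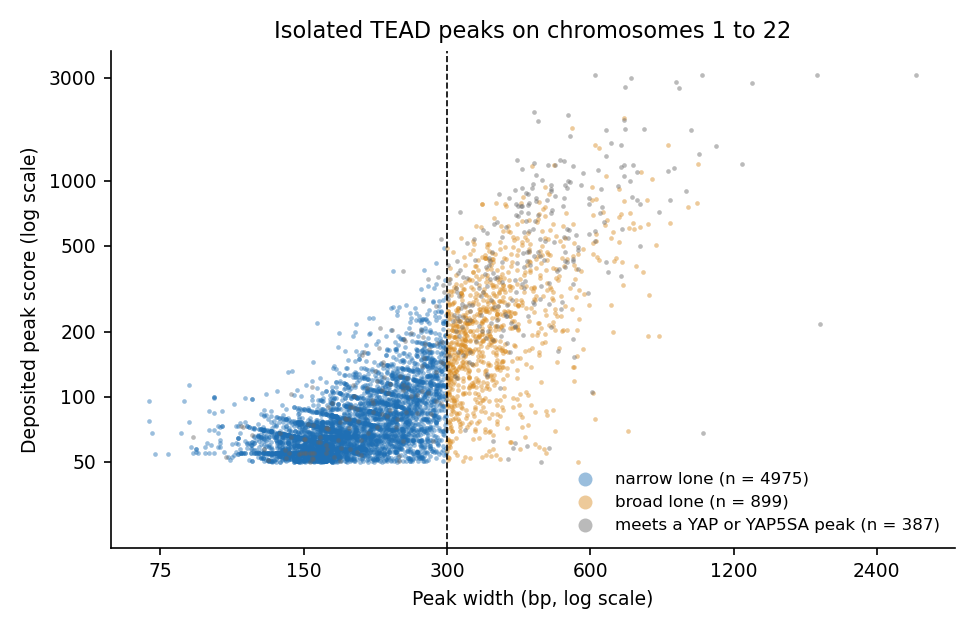
Deposited score (vertical, log scale) against width in bp (horizontal, log scale) of isolated TEAD peaks, 1 point per peak, with the 300 bp limit dashed. The 4975 narrow lone peaks crowd toward the lowest score of 50, the 899 broad lone peaks lie to the right of the limit and higher, and peaks that met a YAP or YAP5SA peak are spread over the upper right.

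Width and score rose together within the set. The median width was 175 bp (interquartile range 156 to 223), with a smallest width of 71 bp, against a sonicated fragment length of about 250 bp per the labels' protocols. The 869 members under 150 bp had a median score of 59.4 and the 2320 members from 150 to 200 bp a median of 61.2. From 200 to 250 bp the median was 79.7 over 1083 members, and from 250 to 300 bp it was 102.7 over 703. Across the 4975 members, which share 1 library, the rank correlation of width and score was 0.54 (Spearman's rho, given as a description).

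The 300 bp limit did not fall at a break in the values. The 99 members of 290 bp or more had a median score of 132.1, and the 118 broad lone peaks under 310 bp had a median of 134.2. Just inside the limit, 1 bp under it, lay the peaks at chr19:5803606-5803904 (score 288), at chr12:104527743-104528041 (192.7) and at chr7:18871138-18871436 (180.3). Just outside it, at 300 bp, lay those at chr2:179303299-179303598 (487.5), chr7:5611383-5611682 (244) and chr1:198816917-198817216 (139.5). Peaks of equal width were ordered by score, so those named on either side are the highest-scoring at their width, with chromosome 8 passed over. Other broad lone peaks of 300 bp scored as low as 56.34. Scores on either side of the limit were thus alike at the median.

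The 10 members with the highest scores ran from 288 to 490 and were at least 231 bp wide. The strongest lay at chr5:156811122-156811417, 296 bp wide with a score of 489.93. Its nearest YAP5SA peak was 83634 bp away and its nearest YAP peak 407857 bp away. The next, at chr12:52444910-52445194, scored 416.79 and had its nearest YAP peak at 127363 bp and YAP5SA peak at 144888 bp. The peaks at chr1:42065674-42065941 (score 384.88) and at chr17:30241728-30242012 (333.03) were likewise more than 100 kb from either. In all, 8 of the 10, these 4 among them, had no listed YAP or YAP5SA peak within 50 kb.

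The other 2 of the 10 had a listed peak closer by. The narrowest of the 10, 231 bp at chr11:85780840-85781070 (score 381.1), lay 5682 bp from a YAP5SA peak of score 61.0. The member at chr1:165742592-165742865 (326.44) lay 1830 bp from a YAP peak of score 51.1. No other member of the 10 had a peak of either list within 10 kb. The remaining 4 of the 10 were at chr4:169469016-169469312 (348.3), chr9:111872312-111872593 (319.56), chr1:235123165-235123428 (316.3) and chr19:5803606-5803904 (288.32). Those on chromosomes 4 and 9 had 1 further TEAD peak within 12500 bp, and the other 8 had none.

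Overlap with neither list was the usual state of TEAD peaks. Of the 8489 TEAD peaks on chromosomes 1 to 22 away from the empty stretches, 7895 overlapped neither list (93%). Of the 5100 narrow isolated peaks, 4975 did, and 125 were left out because they met a YAP or YAP5SA peak. Since the rule used overlap, nothing is read from this share. The 125 scored 84.9 at the median (quartiles 63.1 and 129.8) and were 209 bp wide at the median.

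Narrow isolated TEAD peaks met YAP5SA less often than broad isolated ones over the whole list. Within bands of score up to 500, no difference was resolved. Scores of 500 or more were not banded, though the whole-list difference includes them. No member and 95 broad lone peaks scored that high. In all, 106 of 5100 narrow peaks overlapped a YAP5SA peak (2.08%, exact 95% interval 1.71 to 2.51) against 229 of 1161 broad ones (19.7%, 17.5 to 22.1), a difference of -17.65 percentage points (Newcombe 95% interval -20.06 to -15.42). For scores of 100 to 150 the shares were 22 of 581 narrow (3.79%) and 8 of 163 broad (4.91%), a difference of -1.12 points (-5.78 to 1.93). For 150 to 200 they were 14 of 137 (10.2%) and 13 of 163 (7.98%), a difference of 2.24 points (-4.33 to 9.25). From 200 to 300 they were 5 of 62 (8.06%) and 44 of 255 (17.3%), a difference of -9.19 points (-16.05 to 1.14). From 300 to 500 they were 4 of 14 (28.6%) and 55 of 222 (24.8%), a difference of 3.797 points (-14.12 to 30.39). These 4 intervals include 0, and they are too wide to show that the classes are alike. Below 100 few broad peaks were isolated, and 0 of the 29, 54 and 61 in the bands under 60, from 60 to 80 and from 80 to 100 met YAP5SA (upper limits 11.9%, 6.60% and 5.87%). With overlap counted as centres within 250 bp, which does not depend on width, the shares were 3.61% narrow and 4.91% broad from 100 to 150, and 10.2% and 7.98% from 150 to 200. The score bands were chosen after the data were seen, and the intervals treat peaks as independent. Width and overlap were both used by the rule, so these shares and differences describe the lists and carry no test.

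Within the narrow isolated peaks the share that met YAP5SA tended to rise with the TEAD score, though not at every step. It was 1.30% of the 1768 peaks under 60 (0.826 to 1.95) and 1.20% of the 1917 from 60 to 80 (0.762 to 1.795). From 80 to 100 it was 2.26% of 620 (1.24 to 3.76), and it reached 10.2% of 137 from 150 to 200 (5.70 to 16.6). The interval from 150 to 200 lies above those of the 3 lowest bands. From 200 to 300 the share was lower, 8.06% of 62 (2.67 to 17.8), with an interval that overlaps that from 80 to 100. From 300 to 500 it was 28.6% of only 14 peaks (8.39 to 58.1). The YAP list is shorter, with 3867 peaks against 9616 for YAP5SA, and the narrow peaks met it less often. They did so in 20 of 5100 cases (0.392%, 0.240 to 0.605), against 76 of 1161 broad ones (6.55%, 5.19 to 8.13), a difference of -6.15 points (Newcombe 95% interval -7.73 to -4.85). Here a difference remained at the lowest scores: under 60, 4 of 1768 narrow and 5 of 29 broad peaks met YAP, -17.02 points (-34.32 to -7.37). From 60 to 80 it was 8 of 1917 and 4 of 54, -6.99 points (-17.14 to -2.48). With centres within 250 bp, narrow and broad counts were 5 of 1768 and 4 of 29 under 60. From 60 to 80 they were 8 of 1917 and 3 of 54. These low bands hold few broad peaks, and the values are descriptions with no test. In the bands from 80 to 500 the intervals of the difference in YAP overlap included 0.

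**Figure D2:**
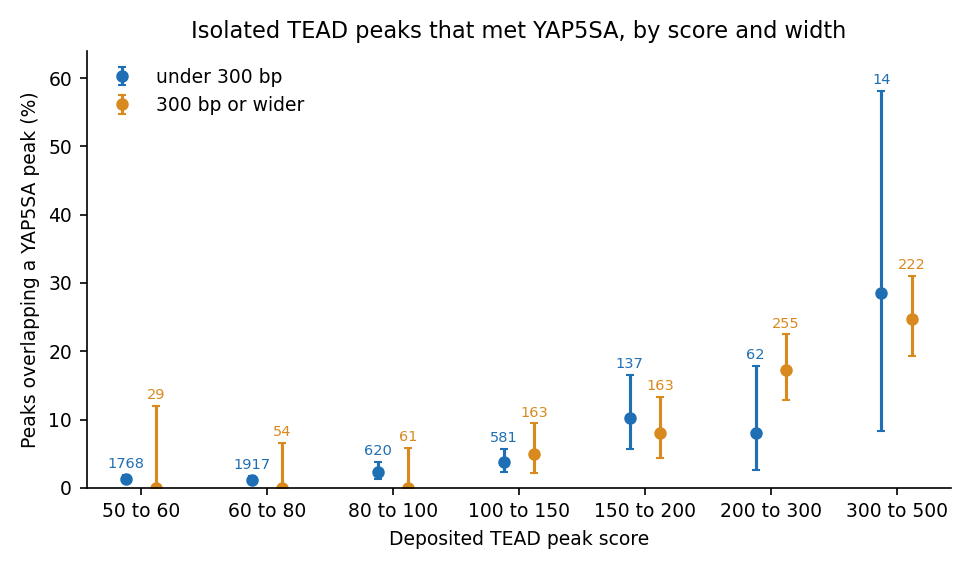
Percentage of isolated TEAD peaks overlapping a YAP5SA peak (vertical) by deposited TEAD score (horizontal), for peaks under 300 bp and for wider ones. Points are shares, bars exact 95% intervals and numerals the peaks per band; from 100 to 200 the intervals of both widths overlap, at 3.79% and 4.91%, then 10.2% and 7.98%.

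Members with a YAP5SA peak beside them, without overlap, were few. A YAP5SA peak lay within 1 kb of 53 of the 4975 (1.07%, exact 95% interval 0.799 to 1.39), where 1.87% was the figure for all 7895 TEAD peaks overlapping neither list. Those 7895 include the members themselves, the broad lone peaks and the 2021 peaks in runs that the rule left out. Within 10 kb the count was 352 (7.08%, 6.38 to 7.82), against 10.9% of all such TEAD peaks. Within 100 kb it was 2626 (52.8%), against 57.2% of all such TEAD peaks. For the broad lone peaks the shares were 19 of 899 within 1 kb (2.11%, 1.28 to 3.28) and 82 within 10 kb (9.12%). The members differed from them by -1.05 points within 1 kb (Newcombe 95% interval -2.24 to -0.225) and by -2.05 points within 10 kb (-4.22 to -0.178), and both intervals leave out 0. Within 100 kb the difference of -2.61 points had an interval of -6.12 to 0.936. The classes were not matched on score or pairing and the intervals treat peaks as independent, so these differences are descriptions with no test.

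Beside the members the first kilobase held somewhat more YAP5SA peaks than the mean farther out. It held 53, and each of the next 19 kilobases held between 24 and 56, with a mean of 37.8. The highest of these, 56, was the farthest, from 19 to 20 kb, and the next highest was 45, from 14 to 15 kb. The rule left out TEAD peaks that a YAP5SA peak overlapped, so the profile starts at the peak edge and carries no test. Beside the broad lone peaks the first kilobase held 21 YAP5SA peaks and the next 19 held between 4 and 13 each, with a mean of 8.26. There the first kilobase stood above every other, at 2.54 times the mean, against 1.40 times for the members.

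**Figure D3:**
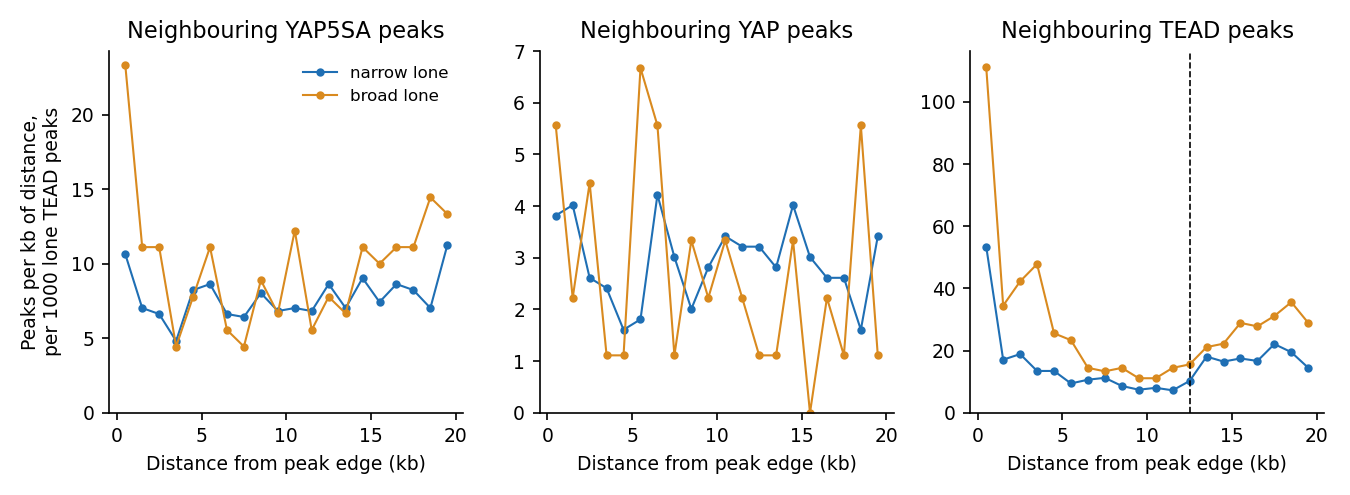
Neighbouring YAP5SA, YAP and TEAD peaks per kb of distance and per 1000 lone TEAD peaks (vertical) against distance in kb from the peak edge (horizontal), for narrow and broad lone peaks; the vertical scales differ between panels. For narrow lone peaks the first kilobase held 10.7 YAP5SA, 3.82 YAP and 53.5 TEAD peaks per 1000, and the dashed line marks the 12500 bp used by the rule on runs.

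Endogenous YAP peaks were rarer still beside the members. A YAP peak lay within 1 kb of 19 members (0.382%, 0.230 to 0.596; 0.811% of all TEAD peaks overlapping neither list) and within 10 kb of 138 (2.77%, 2.34 to 3.27; 4.67%). The share within 1 kb was 0.241% with distances between centres and 0.578% in the higher-scoring 50% of the TEAD list. The broad lone peaks had 5 of 899 within 1 kb (0.556%) and 27 within 10 kb (3.003%). The difference within 10 kb was -0.23 points (Newcombe 95% interval -1.63 to 0.825), so the classes could not be separated on this measure. By kilobase, 19 YAP peaks lay in the first and 8 to 21 in each of the next 19. Medians of the distance to the nearest peak were 261 kb for YAP (interquartile range 104.6 to 513) and 92.7 kb for YAP5SA (36.3 to 192.7). The YAP list holds 3867 peaks and the YAP5SA list 9616. For 1801 members (36.2%) no peak of either list lay within 100 kb, much as for 315 of the 899 broad lone peaks (35.0%). Both lists had a peak within 10 kb of 12 members.

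The closest near misses lay at gaps of 85 to 274 bp. The member at chr10:96141279-96141476 (score 54.98) lay 85 bp from a YAP5SA peak of score 79.1, and that at chr10:117416802-117416956 (63.03) lay 94 bp from one of score 120.6. On chromosome 12 a member from 66386195 to 66386385 (55.09) lay 115 bp from a YAP5SA peak of score 50.95. Toward YAP the closest were members at chr6:43598014-43598169 (85.36, at 143 bp), chr1:92066692-92066845 (51.07, at 225 bp) and chr1:218834155-218834395 (135.59, at 274 bp). Their YAP neighbours scored 50.01, 50.01 and 57.7. All of these gaps except the last were shorter than the fragment length of about 250 bp. The 53 members within 1 kb of YAP5SA had a median TEAD score of 63.7, against 65.4 for the other 4922, and their YAP5SA neighbours a median of 59.3, against 57.0 for the whole YAP5SA list. The 19 members within 1 kb of YAP had a median TEAD score of 73.7, against 65.4 for the other 4956, and their YAP neighbours a median of 56.9, against 57.9 for the whole YAP list. These medians are descriptions with no test.

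The rule on runs kept single TEAD peaks and pairs, and the members divided between these as follows. Of the 4975, 4076 had no TEAD peak within 12500 bp (81.9%) and 899 formed a pair with 1 other TEAD peak (18.1%). Among the broad lone peaks 328 of 899 were in pairs (36.5%). The median distance to the next TEAD peak was 70.2 kb for members (interquartile range 19 to 195.8) and 25.7 kb for broad lone peaks (4.57 to 87.4). Runs of 3 or more were left out of both classes by the rule, so these shares and distances describe what the rule kept and carry no test. The first kilobase beside the members held 266 TEAD peaks against 36 to 110 in each of the next 19, and the counts rose again past 12500 bp, the distance the rule used.

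The pairs joined members to one another or to another TEAD peak, which mostly scored higher. Of 580 pairs with a member, 319 held 2 members, with a median gap of 3.04 kb (interquartile range 0.789 to 7.10). In 202 pairs the partner was a broad lone peak; the members there had a median score of 69.3 and the partners 232, and the partner scored higher in 187. In the remaining 59 the partner was a TEAD peak outside both classes, with a median of 427, and it scored higher in 53. Over the whole classes the median was 65.4 for members and 203 for broad lone peaks. The order in the 202 pairs was thus already that of the classes, and these pair scores are descriptions with no test. Gaps under 250 bp occurred in 51 of the 319 pairs of members (16.0%), in 26 of the 202 (12.9%) and in 10 of the 59 (16.9%). Paired members had a median score of 70.9 and a median width of 189 bp, single ones 64.3 and 172 bp. Whether close pairs are separate sites or 1 site listed in pieces was not tested.

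The members were spread over all 22 chromosomes, with the highest density on chromosomes 17 and 19. Over 2621 Mb there were 1.90 members per Mb. Chromosome 17 held 284 members (3.83 per Mb) and chromosome 19 held 198 (3.81 per Mb). Chromosome 15 came next at 2.29 per Mb. The lowest densities were on chromosome 18, with 57 members (0.810 per Mb), chromosome 4 with 178 (0.971 per Mb) and chromosome 13 with 118 (1.24 per Mb). As background, chromosomes 17 and 19 are rich in genes and chromosomes 4, 13 and 18 poor in them; gene density was not measured here.

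The broad lone peaks were densest and sparsest on the same chromosomes as the members, and the YAP and YAP5SA lists were more even. Broad lone peaks were densest on chromosome 17 (1.11 per Mb) and chromosome 19 (1.08) and sparsest on chromosome 18 (0.142, from 10 peaks). On chromosome 13, where members were sparse, broad lone peaks stood at 0.357 per Mb, above their median over chromosomes of 0.309. The highest density was 4.725 times the lowest for members and 7.78 times for broad lone peaks. For all YAP peaks it was 1.71 times and for all YAP5SA peaks 1.91 times. On chromosome 19 YAP stood at 1.08 per Mb, below its median over chromosomes of 1.24, and YAP5SA at 3.47, near its median of 3.43. On chromosome 17 both stood above their medians, YAP at 1.40 per Mb and YAP5SA at 3.96. YAP was sparsest on chromosome 18 (0.839 per Mb), as the members were, and YAP5SA on chromosome 10 (2.29 per Mb), where the members stood at 1.98 per Mb. Members made up between 77.6% of lone TEAD peaks, on chromosome 17, and 91.5%, on chromosome 22. Their median score varied little, from 60.6 on chromosome 22 to 71.2 on chromosome 13.

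**Figure D4:**
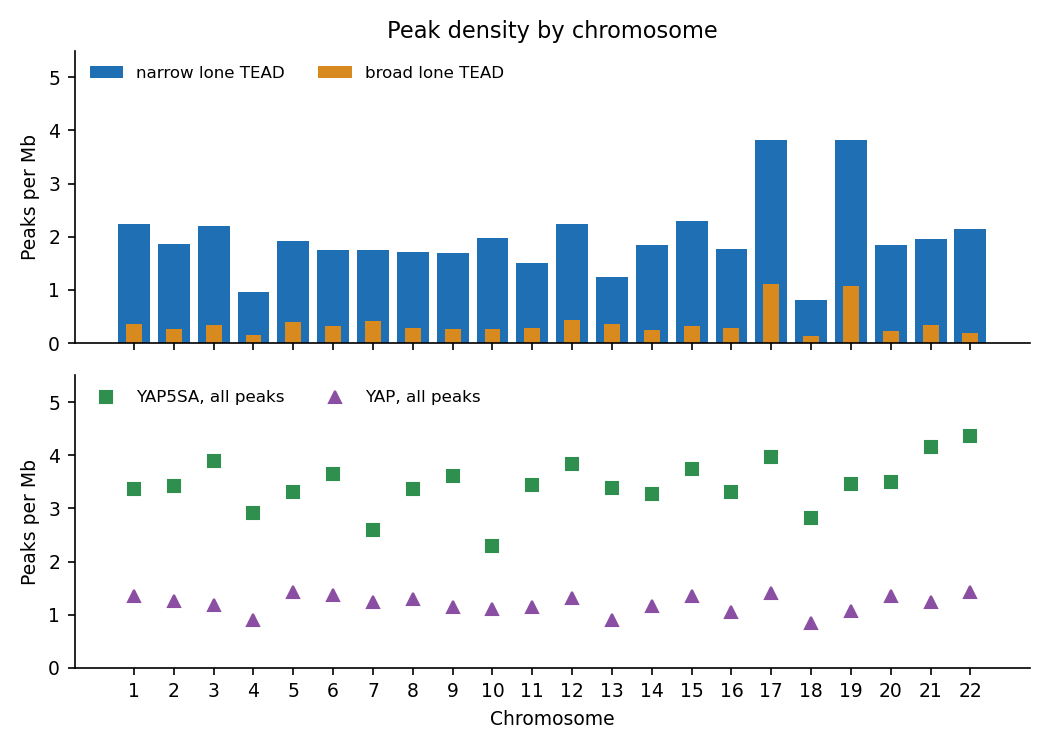
Peaks per Mb (vertical) on chromosomes 1 to 22 (horizontal), with narrow and broad lone TEAD peaks as overlaid bars from 0 and all YAP5SA and YAP peaks as points in the lower panel. Narrow lone peaks reach 3.83 and 3.81 per Mb on chromosomes 17 and 19, while YAP runs from 0.839 to 1.43 and YAP5SA from 2.29 to 4.36.

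In windows of 10 Mb the members followed the broad lone peaks more closely than the YAP lists. Of 218 complete windows each held between 2 and 53 members, with a median of 18. The rank correlation of their number with that of broad lone peaks was 0.50, with YAP peaks 0.32 and with YAP5SA peaks 0.31. These are descriptions across windows of 1 genome; members and broad peaks also share a library, and all lists share the cell line. The fullest windows were on chromosome 17 from 60 to 70 Mb and on chromosome 3 from 150 to 160 Mb, with 53 members each. Next came chromosome 19 from 40 to 50 Mb with 52, chromosome 2 from 180 to 190 Mb with 46 and chromosome 17 from 40 to 50 Mb with 45. The last of these also held 26 broad lone peaks, the most of any window, whereas the chromosome 2 window held 6. The emptiest was chromosome 18 from 40 to 50 Mb, with 2 members and no broad lone peak but 27 YAP5SA and 11 YAP peaks. These windows were picked after their counts were seen.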

How the data were processed

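ChIP-seq peak lists of 3 libraries (YAP, TEAD and Flag-Bio-YAP5SA) were analysed, without the BirA, IgG and input libraries. Reads were aligned to hg19 with Bowtie2, per the submitters' processing notes. Each deposited list, 1 per library, gives a position and the authors' score per peak. Peak names begin with MACS. The caller version, threshold and control library were not given in the sources used here. Scores were used as ranks and levels within each list, mostly the TEAD list. Read depth is unknown. Starts and ends (other deposited columns) were read as half-open and counted from 0; 1 TEAD start below 0 was set to 0.

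Overlap needed 1 bp, and distances ran from edge to edge. Densities used the length between the first and last listed base less the empty stretches with 2 Mb margins. Shares carry exact Clopper-Pearson 95% intervals and differences Newcombe intervals; both cover counting error only and treat peaks as independent. Members and lists were chosen with earlier results of these data known. Peaks named were the 10 of highest score, 3 on either side of the width limit and the 3 nearest to each other list, passing over chromosome 8. At the width limit, peaks of equal width were taken by highest score. Planned results on motifs, base composition, annotation and gene lists were not run, because the reference tables are in another build. The code was tested on simulated data, where all 800 planted members among 2446 peaks were recovered, and its 418 YAP and 512 YAP5SA overlaps equalled those of bedtools 2.31.1. The scripts ran under Python 3.11.15 with pandas 2.3.3, scipy 1.17.1 and numpy 2.4.6, and plots were made in matplotlib 3.10.9.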

Additional observations from a re-analysis of the deposited data

How the results depend on the processing

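Across 7 alternatives 63 values were recomputed for 10 results, and 54 stayed within the 95% interval of the reported value or, for counts and densities, within 1.5 times. With a width limit of 250 bp the median score was 63.1, the median width 167 bp and the median distance to the next TEAD peak 74.3 kb. Among the higher-scoring 50% of the TEAD list, 1557 members (0.594 per Mb) had a median score of 98.9, a median width of 230 bp and a median distance of 50.1 kb; fewer and stronger peaks enter by construction. With a run distance of 25 kb that distance was 85.6 kb. Shares of members near YAP or YAP5SA stayed within their intervals under all alternatives run. The share within 1 kb of YAP, which rests on 19 members, still moved by over 1.5 times, from 0.382% to 0.241% with distances between centres and to 0.578% among the higher-scoring 50%. Counting empty chromosome starts as stretches (4952 members), overlap by centres within 250 bp and omission of chromosome 1 were added after the data were seen and moved none of the 10 results. No paired analysis was possible because no group holds more than 1 library, which also means that no replicate could be left out. The motif, base composition, annotation and gene list alternatives were not run. Unknown read depth limits how many weak YAP and YAP5SA peaks could be listed.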
